A study of Mus musculus with 3 samples.

Results

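The genes described here are Etv1, Gbx1, Gbx2, Kctd12 and Zic1, grouped here as markers of neurons of the globus pallidus, together with Isl1 and the cholinergic genes Chat, Slc18a3 and Slc5a7. Their probes were chosen by the RefSeq transcript each probe carries, which gave 13 of the 55681 mouse probes of the array and 9 of the 20145 genes that could be named. Expression was measured in 3 sorted cell populations. MGE-GFP+ cells came from the medial ganglionic eminence (MGE) of embryonic day 12.5 brains of CD1 mice that carry an Lhx6-GFP bacterial artificial chromosome. Embryoid body aggregates of J14 mouse ES cells at day 12 (D12) gave the GFP positive ES-Lhx6-GFP+ cells and the GFP negative ES-Lhx6-GFP- cells. J14 is 1 line of 129S4/SvJae origin that also carries an Lhx6-GFP bacterial artificial chromosome, and the labels add a 692-mCherry reporter virus. The aggregates were formed in 100 ng/ml Dkk-1, an inhibitor of Wnt signaling, and received the Smoothened agonist SAG at 6 nM from D3 and again on transfer to new medium at D6. The populations are written below as MGE GFP+, ES GFP+ and ES GFP- cells. GFP in both sources reports the transgene and not the Lhx6 protein. Strain, sex as labeled, culture and cell source differ between the MGE GFP+ array and both ES cell arrays and cannot be told apart. With 1 array for each population no test was made and no difference has a replicate check. Precision is limited by the number of arrays.

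The MGE gives rise to cortical and striatal interneurons, but also to projection neurons of the globus pallidus and to the cholinergic neurons of the basal forebrain. Cholinergic neurons make acetylcholine with choline acetyltransferase (Chat), load it into vesicles with the vesicular transporter Slc18a3 (VAChT) and take choline back up with the high-affinity transporter Slc5a7. In this lineage the LIM-homeodomain factors Lhx8 and Isl1 are known for cholinergic specification, while Lhx6 is kept in GABAergic cells. Etv1 (ER81) is an ETS factor, Gbx1 and Gbx2 are homeobox factors, Zic1 is a zinc finger factor known from the septum and other midline regions, and Kctd12 is an auxiliary subunit of GABAB receptors.

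Intensities are given as measured, on a linear scale after background subtraction, and differences as log2 intensity after each array was set to its own 75th percentile. That percentile was an intensity of 573 on the MGE GFP+ array, 745 on the ES GFP+ array and 841 on the ES GFP- array. As a measure of error within an array, probes printed at 5 or more places had an SD of 0.144, 0.139 and 0.141 on the log2 scale on these arrays. From repeat spots alone, a difference between single spots of 2 arrays had an SD of 0.20, and 2 SDs corresponded to 1.32-fold. This spread does not cover differences among embryos, cultures, cell sorts or labelings. Signal without a mouse transcript behind it was read from 106 control probes, which match adenovirus E1A or synthetic ERCC sequences. Their 95th percentile was an intensity of 152 for MGE GFP+, 377 for ES GFP+ and 208 for ES GFP- cells, and their median was 7.73, 69.9 and 11.5. A probe at or below the 95th percentile is described as within the range of the control probes, and a fold against such a value depends on how far the dim signal can be trusted. The ES GFP+ array thus had the highest signal on sequences that mouse RNA should not match, and 90.6% of its mouse probes were well above background, compared with 77.1% and 80.3% on the MGE GFP+ and ES GFP- arrays. What part this baseline has in differences of dim probes was not tested. Scaling to the 50th percentile in place of the 75th added 0.74 to the log2 differences between MGE GFP+ and ES GFP+ cells, added 0.32 to those between MGE GFP+ and ES GFP- cells and changed those between ES GFP+ and ES GFP- cells by -0.42.

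The sorted populations were first examined for markers of MGE-derived neurons. Lhx6, Lhx8, Nkx2-1, Sox6, Dlx5 and Gad1 were above the control probes on all 3 arrays. Relative to ES GFP- cells, the LIM-homeodomain gene Lhx8 was 77.9-fold higher in MGE GFP+ and 18.4-fold higher in ES GFP+ cells. Its ES GFP- intensity of 213 was close to the 95th percentile of the control probes, and in the deposited values the log2 differences of 6.28 and 4.20 were 5.57 and 3.94. Gad1, which makes GABA, was 3.74-fold and 4.37-fold higher.

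The pallidal genes and the cholinergic genes, as grouped here, showed different pictures. The paper names Gbx2 as a globus pallidus marker. It also cites low Islet1 and Gbx2, from immunofluorescence and array data, where it proposes that ES GFP+ cells do not become subpallial cholinergic neurons. Gbx2 therefore belongs to both groups. Gbx1 is not among the globus pallidus markers it names. Those it names include Etv1, Gbx2, Kctd12 and Zic1, which it reported as robust in MGE GFP+ cells alone on these same arrays. Their higher values there are therefore not independent of the choice of genes. All 5 pallidal genes were above the control probes in MGE GFP+ cells and all 5 were at least 2-fold higher there than in ES GFP- cells, where 10% of genes with a value were. The log2 differences ran from 2.73 to 3.85, and from 1.83 (Gbx1) to 3.82 with a floor at the 95th percentile of the control probes. Of Isl1, Chat, Slc18a3 and Slc5a7, none differed 2-fold between those populations. On the MGE GFP+ array the signal of Isl1, Slc18a3 and Slc5a7 was within the range of the control probes and that of Chat was 1.04 times their 95th percentile. All 4 were within that range on the ES GFP+ array. These arrays therefore did not show Isl1, Chat, Slc18a3 or Slc5a7 clearly above the control probes in either Lhx6-GFP+ population, while the cholinergic specification factor Lhx8 was above them in both, and the cholinergic name of the gene group describes the genes and not the cells. In sorted bulk RNA, fewer cells of a type and less RNA per cell cannot be told apart.

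**Figure D1:**
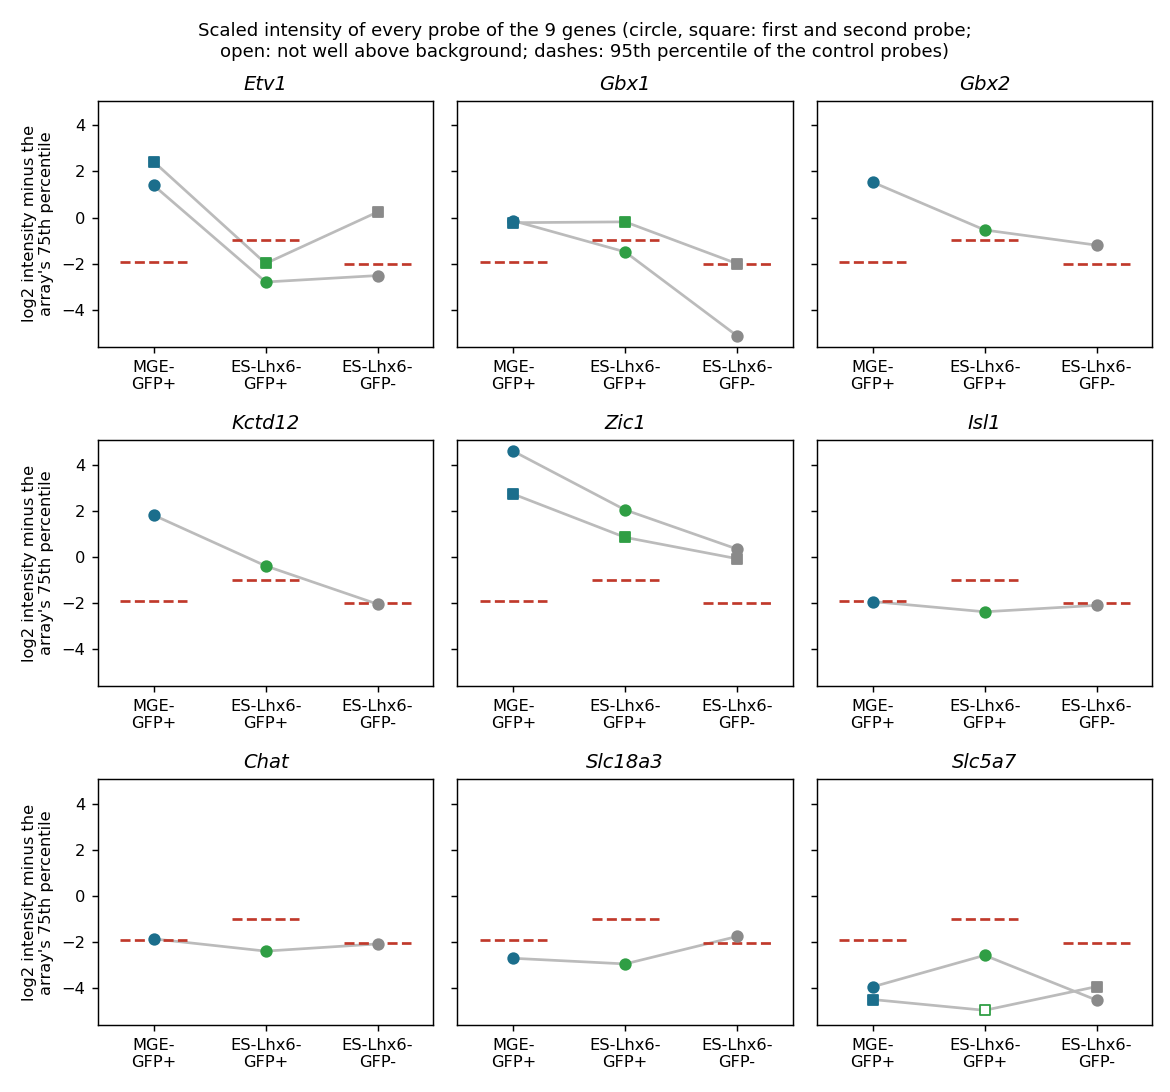
Each panel shows 1 gene, with log2 intensity minus the array's 75th percentile on the y axis and the 3 populations on the x axis. Circles and squares are the first and second probe, an open symbol is a probe not well above background, and red dashes mark the 95th percentile of the control probes on each array. Both Zic1 probes lie above the dashes in all 3 populations, whereas no probe of Slc5a7 does in any.

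Zic1 was brightest in MGE GFP+ cells and dimmest in ES GFP- cells on both of its probes. The probe at chr9:91255425-91255484 (mm9, minus strand) had an intensity of 13672 in MGE GFP+, 3052 in ES GFP+ and 1062 in ES GFP- cells. The probe at chr9:91257301-91257360 had 3772, 1337 and 795. The order of the populations was thus the same on both probes, and every value was above the control probes. Over both probes Zic1 was 4.63-fold higher in MGE GFP+ than in ES GFP+ cells and 11.5-fold higher than in ES GFP- cells. ES GFP+ cells were 2.48-fold higher than ES GFP- cells, a log2 difference of 1.31 that was 0.89 after scaling to the 50th percentile and so under 2-fold there. Each of these differences was larger than 2 SDs of the repeat spots.

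Gbx2 has 1 probe, at chr1:91825013-91825072 (minus strand). Its intensity was 1659 in MGE GFP+, 514 in ES GFP+ and 368 in ES GFP- cells, above the control probes each time. Gbx2 was 4.20-fold higher in MGE GFP+ than in ES GFP+ cells and 6.62-fold higher than in ES GFP- cells. The 2 ES cell populations were closer, with ES GFP+ cells 1.58-fold higher, a log2 difference of 0.66. That difference passed 2 SDs of the repeat spots, but it was 0.23 after scaling to the 50th percentile, which does not.

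Kctd12, with a probe at chr14:103375986-103376045 (minus strand), had an intensity of 1998 in MGE GFP+, 568 in ES GFP+ and 203 in ES GFP- cells. It was above the control probes in both Lhx6-GFP+ populations and at 0.975 times their 95th percentile in ES GFP- cells. MGE GFP+ cells were 4.58-fold higher than ES GFP+ cells and 14.4-fold higher than ES GFP- cells. ES GFP+ cells were 3.15-fold higher than ES GFP- cells, and the log2 difference of 1.66 stayed between 1.23 and 1.68 over 10 other ways of processing.

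Zic1, Gbx2 and Kctd12 shared 1 order of the populations on every probe, and the 250 bases before the start of each gene are shown because of this order. Gbx1 had the same order as a mean of its probes, but not on the second probe. The sequences are from RefSeq promoters of GRCm38.p6, 5′ to 3′ on the strand of the gene, and the first base after each is the annotated start. Both strands were searched for TAATTA, a core of LIM-homeodomain and other homeobox sites, for CAAGTG, a core of Nkx2-1 sites, and for CACGTG, an E-box chosen after the sequences had been read. None of these motifs overlap each other in the windows shown. Capitals mark matches, which here were all CACGTG.
Zic1 (chr9:91365769-91366018, minus strand): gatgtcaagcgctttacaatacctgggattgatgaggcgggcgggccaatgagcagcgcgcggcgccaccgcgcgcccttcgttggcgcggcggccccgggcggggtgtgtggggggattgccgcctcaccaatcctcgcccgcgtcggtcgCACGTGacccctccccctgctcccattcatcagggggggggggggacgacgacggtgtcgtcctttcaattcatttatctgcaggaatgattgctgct
Gbx2 (chr1:89931177-89931426, minus strand): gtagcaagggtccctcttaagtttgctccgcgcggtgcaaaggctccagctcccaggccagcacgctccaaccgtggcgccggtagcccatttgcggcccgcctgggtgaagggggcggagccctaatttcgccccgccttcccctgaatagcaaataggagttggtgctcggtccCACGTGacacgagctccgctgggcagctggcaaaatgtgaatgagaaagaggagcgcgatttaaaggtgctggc
Kctd12 (chr14:102982638-102982887, minus strand): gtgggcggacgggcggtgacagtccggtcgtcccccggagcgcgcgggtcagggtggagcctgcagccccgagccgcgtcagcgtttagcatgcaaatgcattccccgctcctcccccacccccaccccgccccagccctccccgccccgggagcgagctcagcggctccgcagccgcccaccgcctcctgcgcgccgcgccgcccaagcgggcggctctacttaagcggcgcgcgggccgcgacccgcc
CACGTG began 98 bases before the start of Zic1 and 74 bases before that of Gbx2, in both cases followed by AC, and these letters were not in the Kctd12 window. The window of Chat, whose values had another order, held CACGTG too, and that of Slc18a3 held CAAGTG. Among 32536 such windows of mouse genes, 6.04% held CACGTG, 4.84% held TAATTA and 11.5% held CAAGTG. A match is a description of these letters and not a measured binding site. GC content was 66.0% in the Zic1 window, 61.6% in that of Gbx2 and 77.6% in that of Kctd12.

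Etv1 had another order of the populations, with ES GFP+ cells lowest. The probe at chr12:39593054-39593113 (mm9, plus strand) had an intensity of 3062 in MGE GFP+, 188 in ES GFP+ and 995 in ES GFP- cells. The probe at chr12:39594622-39594681 had 1503, 108 and 148. Both probes were high in MGE GFP+ cells and within the range of the control probes in ES GFP+ cells. They parted in ES GFP- cells, where the first probe was 4.78 times the 95th percentile of the control probes and the second was within their range.

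Over both probes Etv1 was 19.6-fold higher in MGE GFP+ than in ES GFP+ cells. The log2 difference was 4.29. Because the ES GFP+ signal lay within the range of the control probes, the log2 difference was at least 2.89 when their 95th percentile was used as a floor. MGE GFP+ cells were 8.22-fold higher than ES GFP- cells over both probes, by 4.52-fold on the first and 15.0-fold on the second. Between the ES cell populations the first probe was 4.69-fold lower in ES GFP+ cells, whereas the second was 1.21-fold lower, less than 2 SDs. The mean log2 difference of -1.25 therefore rested on the first probe, and the gap of 1.95 between the probes passed 2 SDs of the repeat spots. With the floor at the control probes the log2 difference of the gene was -1.23, which left the first probe alone, in place of -2.23 on that probe. The ES GFP+ signal of both probes was below that floor, so the 4.69-fold and the gap depend on dim signal.

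The 2 probes of Gbx1 also gave different values. The probe at chr5:24010244-24010303 (mm9, minus strand) had an intensity of 521 in MGE GFP+, 266 in ES GFP+ and 24.2 in ES GFP- cells, and the other probe, whose position was not analysed here, had 492, 656 and 211. Gbx1 was above the control probes on both probes in MGE GFP+ cells and on the second alone in the ES cell populations, at 1.74 times their 95th percentile in ES GFP+ cells and 1.01 times in ES GFP- cells. MGE GFP+ cells were 2.55-fold higher than ES GFP+ cells on the first probe and 1.02-fold lower on the second, which is less than 2 SDs. Both Lhx6-GFP+ populations were higher than ES GFP- cells on both probes, but the first probe was at 0.116 times the 95th percentile of the control probes in ES GFP- cells and at 0.707 times in ES GFP+ cells, so that its folds are not resolved. On the second probe MGE GFP+ cells were 3.42-fold and ES GFP+ cells 3.51-fold higher than ES GFP- cells. Over both probes the log2 difference of Gbx1 between MGE GFP+ and ES GFP- cells was 3.38, and 1.83 with the floor at the control probes. Between ES GFP+ and ES GFP- cells it was 2.72, 1.81 with that floor, which left the second probe alone, and 1.65 in the log2 values the authors deposited.

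Isl1 is the only one of the 9 genes whose probe was printed at several places, 10 on each array. Its intensity ran from 138 to 169 with a median of 151 in MGE GFP+ cells, from 123 to 172 with a median of 145 in ES GFP+ cells and from 175 to 210.1 with a median of 198 in ES GFP- cells. The range of the control probes was passed by 5 of 10 spots in MGE GFP+ cells, 0 of 10 in ES GFP+ cells and 1 of 10 in ES GFP- cells. After scaling, the mean log2 intensity was -1.94 ± 0.10, -2.38 ± 0.17 and -2.10 ± 0.09 (SD over 10 spots of 1 array each). The SDs describe spots and not cell samples. The scaled spots of MGE GFP+ and ES GFP+ cells did not overlap, while those of ES GFP- cells overlapped both. MGE GFP+ cells were 1.36-fold higher than ES GFP+ cells. This log2 difference of 0.44 was 0.79 in the deposited values, 1.19 with the 50th percentile, 1.22 with quantile normalization and 1.21 with the control median subtracted. The SEs of these means over spots were 0.033, 0.053 and 0.027, smaller than the log2 differences of 0.16 between MGE GFP+ and ES GFP- cells and -0.28 between ES GFP+ and ES GFP- cells, and they cover error within an array only. The log2 difference between the ES cell populations was -0.51 in the deposited values and -0.12 after normexp background correction. With the 50th percentile it was -0.70, with quantile normalization -0.86 and with the control median subtracted -1.04. The Isl1 values were close to the control probes, and no level of Isl1 above them was resolved in ES GFP+ cells at this signal. In aggregates of J14 cells the paper saw Islet1 protein by immunostaining, in few of the Lhx6-GFP+ cells. A dim probe here therefore does not show that Isl1 was absent.

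**Figure D2:**
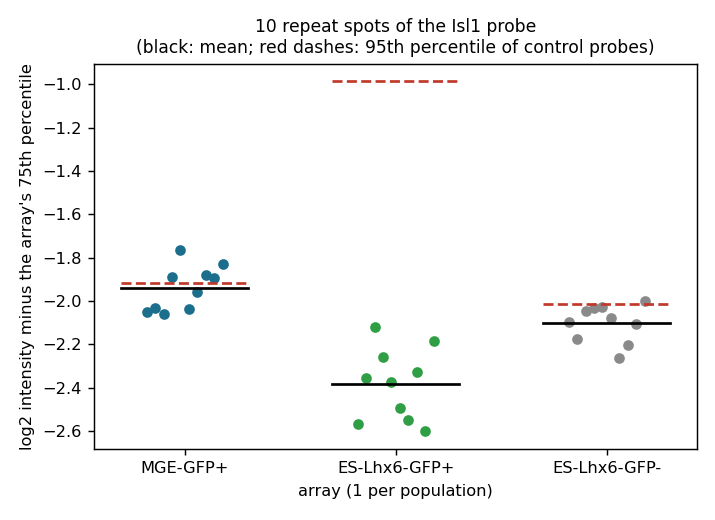
The 10 spots of the Isl1 probe are plotted for each array, with log2 intensity minus the array's 75th percentile on the y axis. Black lines are means of spots and red dashes the 95th percentile of the control probes, which lies above all 10 spots for ES GFP+ cells and among the spots for MGE GFP+ and ES GFP- cells.

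Chat had an intensity of 158 in MGE GFP+, 143 in ES GFP+ and 199.6 in ES GFP- cells. The values were 1.04, 0.378 and 0.958 times the 95th percentile of the control probes, so Chat was above them only in MGE GFP+ cells and by little. MGE GFP+ cells were 1.44-fold higher than ES GFP+ cells, more than 2 SDs, and 1.16-fold higher than ES GFP- cells, less than 2 SDs. The first of these log2 differences, 0.53, was 0.92 in the deposited values, 1.27 with the 50th percentile, 1.29 with quantile normalization and 1.30 with the control median subtracted.

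Slc18a3 lies within the span of the Chat gene in the RefSeq annotation, and the pair is known as the cholinergic locus. Its intensity was 88.4 in MGE GFP+, 97.0 in ES GFP+ and 249.9 in ES GFP- cells. The GFP negative cells were highest, and theirs was the one value above the control probes, at 1.20 times their 95th percentile. Slc18a3 was 1.93-fold lower in MGE GFP+ than in ES GFP- cells and 2.28-fold lower in ES GFP+ than in ES GFP- cells, and 1.18-fold higher in MGE GFP+ than in ES GFP+ cells. This last log2 difference, 0.24, was below 2 SDs, but it was 0.92 in the deposited values, 0.99 with the 50th percentile, 1.35 with quantile normalization and 1.82 with the control median subtracted. With a floor at the control probes, the log2 difference between MGE GFP+ and ES GFP- cells was -0.17 in place of -0.95. The log2 difference between the ES cell populations was -1.19 and was below 0 in all 9 alternatives that gave one, from -2.84 with the control median subtracted to -0.63 after normexp background correction. The log2 difference of Chat there was -0.31, below 2 SDs, but it was -0.65 in the deposited values, -0.74 with the 50th percentile, -0.90 with quantile normalization and -1.08 with the control median subtracted.

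The probes of Slc5a7 did not share a direction. One had an intensity of 37.5 in MGE GFP+, 126 in ES GFP+ and 36.9 in ES GFP- cells. The other had 25.6, 24.1 and 55.4 and was not well above background in ES GFP+ cells. All 6 values were within the range of the control probes. On the first probe ES GFP+ cells were 3.84-fold higher than ES GFP- cells, and on the second they were at least 2.04-fold lower. In the deposited values, made without background subtraction, the first probe had log2 levels of 7.17, 7.07 and 6.71 and the second 6.57, 5.93 and 6.72. No order of the populations can be read for Slc5a7.

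The members were then counted in each comparison beside all genes with a value, since the arrays differed in their general level. Between MGE GFP+ and ES GFP+ cells 4 of the 9 genes, Etv1, Gbx2, Kctd12 and Zic1, were at least 2-fold higher in MGE GFP+ cells, where 5.52% of 18580 genes were. None was at least 2-fold lower, where 32.1% were. The paper had already reported these 4 higher genes as robust in MGE GFP+ cells alone, from the same arrays. Counts of members higher in MGE GFP+ cells are therefore not independent of how the genes were chosen, and the shares of all genes are no test of them. The median log2 difference of the 9 genes was 0.66 and that of all genes -0.35. Under other scalings the median of all genes was 0.40 (50th percentile) and 0.04 (quantile normalization), and the number of members at least 2-fold higher became 7 and 8, where 25.9% and 13.4% of all genes were. The members added under these settings were dim genes whose ES GFP+ signal was within the range of the control probes on at least 1 probe. Relative to the median of all genes, Etv1, Gbx2, Kctd12 and Zic1 stayed at least 1.93 higher on the log2 scale in every setting run.

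Between MGE GFP+ and ES GFP- cells 5 of 9 genes were at least 2-fold higher in MGE GFP+ cells, where 10% of 17025 genes were. They were the 5 pallidal genes, with a median log2 difference of 3.38, the value of Gbx1, and of 2.79 with the floor at the control probes. The number was 5 in all 10 alternatives, and at a 4-fold threshold without that floor. None was at least 2-fold lower, where 17.2% were. The median log2 difference of Isl1, Chat, Slc18a3 and Slc5a7 was 0.09, beside -0.05 for all genes.

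Between ES GFP+ and ES GFP- cells 3 of 9 genes, Gbx1, Kctd12 and Zic1, were at least 2-fold higher in ES GFP+ cells. Of 18655 genes 24% were, so that a share of this kind was common under this scaling. Over the other settings that share ran from 6.00% in the deposited values, where 3 members were also higher, to 26.8% without a floor. Etv1 and Slc18a3 were at least 2-fold lower, where 6.41% of genes were. The median log2 difference of the members was 0.46 and that of all genes 0.26. Relative to all genes Gbx1 was 2.46 higher on the log2 scale, Kctd12 1.39, Zic1 1.05 and Gbx2 0.39, while Etv1 was at -1.52. The comparisons share arrays, so their values are not independent of each other.

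**Figure D3:**
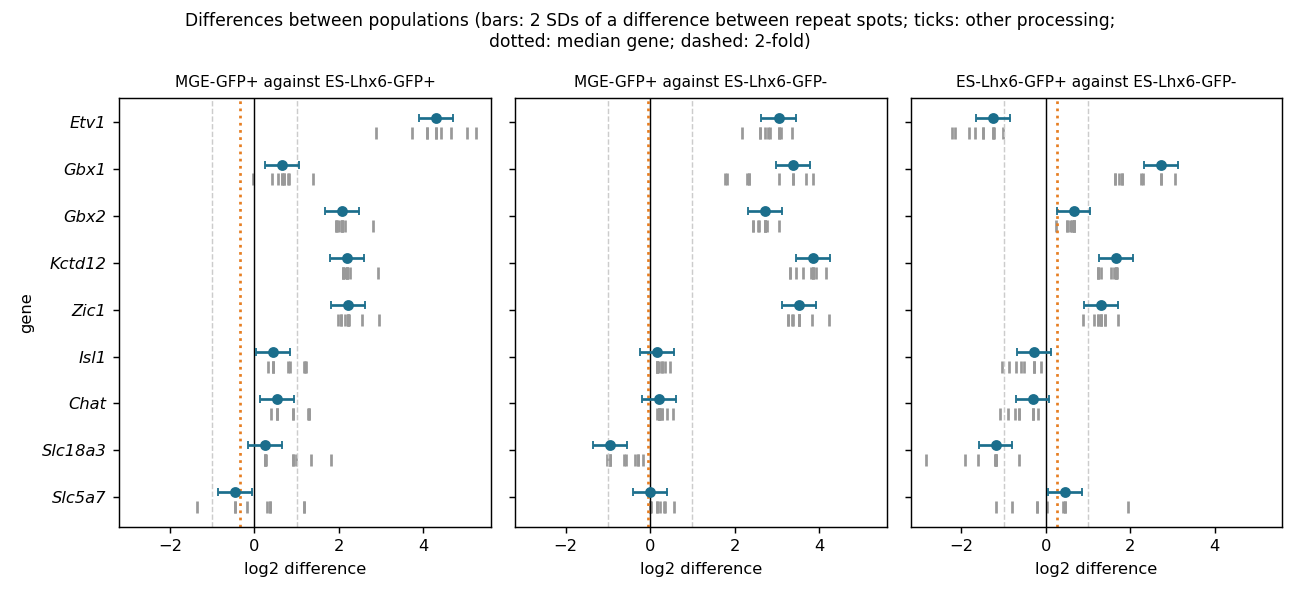
Each panel shows 1 comparison, with log2 differences of the 9 genes on the x axis as points with bars of 2 SDs of a difference between repeat spots. Grey ticks are the same difference under the other ways of processing, dashed lines mark 2-fold and the dotted line the median of all genes. The ticks of Etv1, Gbx2, Kctd12 and Zic1 lie right of the 2-fold line in both comparisons of MGE GFP+ cells, and those of Slc5a7 lie on both sides of 0 in the comparisons of ES GFP+ cells.

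**Figure D4:**
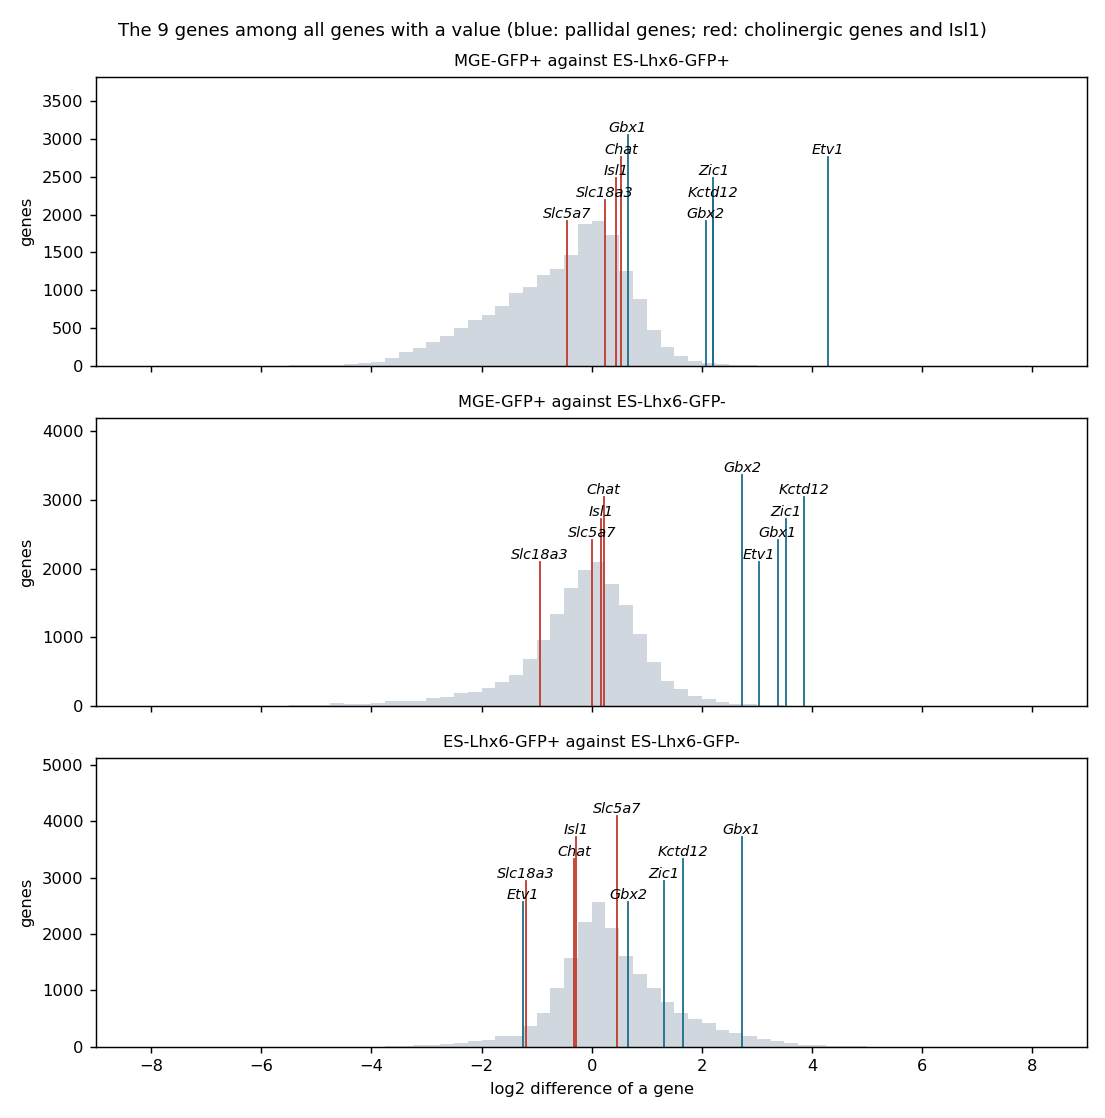
Grey bars count all genes with a value by their log2 difference in bins on the x axis, and vertical lines mark the 9 genes, pallidal in blue and Isl1 and the cholinergic genes in red. Against ES GFP- cells the 5 blue lines of MGE GFP+ cells lie in the right tail, from 2.73 to 3.85, while the red lines lie within the bulk.

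Other genes of pallidal and MGE projection neurons were examined as a list of 12. Lhx6, Lhx8, Nkx2-1 and Sox6 of this list were also among the markers of MGE-derived neurons above. The ES cell populations were sorted by Lhx6-GFP, so a higher Lhx6 in ES GFP+ cells is not independent of the sort. The counts of this and the following lists stand beside the shares of all genes, which were 5.52% higher and 32.1% lower for MGE GFP+ against ES GFP+ cells, 10% and 17.2% for MGE GFP+ against ES GFP- cells, and 24% and 6.41% for ES GFP+ against ES GFP- cells. In the deposited values these shares were 6.08% and 8.09%, 6.64% and 9.31%, and 6.00% and 6.88%. In MGE GFP+ cells 8 of 12 were at least 2-fold higher than in ES GFP- cells and 1 lower, with a median log2 difference of 1.90. Between ES GFP+ and ES GFP- cells 7 were higher and 1 lower, with a median of 1.31 beside 0.26 for all genes. For MGE GFP+ against ES GFP+ cells 4 were higher and 2 lower, with a median of 0.68. With scaling to the 50th percentile 9 were higher and 2 lower there, with a median of 1.43, where 25.9% of all genes were higher. The largest ranges were those of Lhx8, given above, of Meis2 and Sox6, and of Lhx6. Meis2, a homeobox factor known from striatal precursors, was 5.66-fold lower in MGE GFP+ than in ES GFP+ cells and 2.75-fold lower in ES GFP+ than in ES GFP- cells. Sox6 was 3.16-fold higher in MGE GFP+ than in ES GFP+ cells and 3.88-fold higher in ES GFP+ than in ES GFP- cells. Lhx6 was 1.72-fold and 6.18-fold higher in the same comparisons as a mean of 3 probes, which disagreed. The brightest Lhx6 probe had intensities of 97733 in MGE GFP+, 111947 in ES GFP+ and 122188 in ES GFP- cells, with log2 differences of 0.18 and 0.05 in these comparisons, whereas the others had 1.20 and 0.97 in the first and 4.04 and 3.80 in the second.

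The paralogs of the member factors included Zic1's neighbour on the chromosome, Zic4. Zic4 was 3.39-fold higher in MGE GFP+ than in ES GFP+ cells, and it was above the control probes in MGE GFP+ cells alone. Its log2 difference to ES GFP- cells was 4.14, and 2.72 in the deposited values. The ETS factor Etv5, a relative of Etv1, was 1.74-fold higher in MGE GFP+ than in ES GFP+ cells and 1.69-fold lower in ES GFP+ than in ES GFP- cells, while MGE GFP+ and ES GFP- cells differed by 1.03-fold, below 2 SDs. Etv4 was above the control probes on 1 of its 2 probes at most and its log2 difference between MGE GFP+ and ES GFP+ cells was -0.86, against 0.09 in the deposited value table and 0.28 on the brighter probe. Of the 6 of 7 paralogs with a value, 3 were at least 2-fold higher and 1 lower in MGE GFP+ than in ES GFP+ cells (median log2 difference 1.19). Against ES GFP- cells 3 were higher and 1 lower in MGE GFP+ cells, and 2 were higher and 0 lower in ES GFP+ cells, with medians of 0.56 and 0.64. In the deposited values the 3 medians were 0.97, 0.31 and -0.09.

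Among the GABAB receptor genes, which encode the receptor that Kctd12 binds, Kctd8 was high in MGE GFP+ cells. This auxiliary subunit had an intensity of 816 in MGE GFP+, 130 in ES GFP+ and 30.1 in ES GFP- cells, above the control probes in MGE GFP+ cells alone. It was 8.19-fold higher in MGE GFP+ than in ES GFP+ cells, and the order of the ES cell populations was not resolved. The receptor subunit Gabbr1 was above the control probes on all 3 arrays and its log2 difference between MGE GFP+ and ES GFP+ cells was -0.31, below 2 SDs, against 0.43 with scaling to the 50th percentile and -0.62 in the deposited values. Gabbr2 was above the control probes in ES GFP- cells alone, on at least 1 of its 3 probes, and its mean intensity was 42.3, 161 and 158. Of 4 genes of the list with a value between MGE GFP+ and ES GFP+ cells, 1 was at least 2-fold higher and 2 lower, where 32.1% of all genes were lower, with a median log2 difference of -0.93. The 2 lower genes, Gabbr2 and Kctd12b, were within the range of the control probes in both populations, and their log2 differences in the deposited values were -0.42 and -0.30. Of 5 genes with a value against ES GFP- cells 1 was higher and 2 lower in MGE GFP+ cells, and of 4 between the ES cell populations 1 was higher and 0 lower, with medians of -0.50 and 0.63. The last median was -0.20 in the deposited values.

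The genes around acetylcholine other than the members were a list of 16, and 9 of them in MGE GFP+, 10 in ES GFP+ and 10 in ES GFP- cells were above the control probes. Ache, which breaks down acetylcholine, had intensities of 134, 877 and 1356 in these populations and was 5.01-fold lower in MGE GFP+ than in ES GFP+ cells. Bche, a related esterase, was above the control probes in ES GFP- cells alone and was 9.25-fold lower in ES GFP+ cells. The nicotinic receptor subunit Chrna4 was 6.23-fold lower in MGE GFP+ than in ES GFP+ cells and 1.23-fold lower in ES GFP+ than in ES GFP- cells, the latter below 2 SDs. Lhx8 was the gene of this list with the highest ratio of MGE GFP+ to ES GFP- cells. In MGE GFP+ cells 1 gene of 16 was at least 2-fold higher than in ES GFP+ cells and 5 were lower, close to the shares of all genes (5.52% and 32.1%), with a median log2 difference of -0.42. With scaling to the 50th percentile 4 were higher and 4 lower, with a median of 0.32, where 25.9% and 17.1% of all genes were. Against ES GFP- cells 7 of 16 were higher and 5 lower in MGE GFP+ cells, and 7 were higher and 2 lower in ES GFP+ cells, with medians of 0.20 and 0.82. In the deposited values the 3 medians were 0.08, 0.29 and 0.12, with 1 gene higher and 3 lower in the first comparison, 4 and 4 in the second and 4 and 2 in the third.

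Several of the 9 genes are known from other cell types too, and markers of those cells were read on the same arrays. Isl1, Chat, Slc18a3 and Slc5a7 also mark motor neurons. Of 7 motor neuron markers on the array (Mnx1 was not named by any probe here) 2 in MGE GFP+, 2 in ES GFP+ and 6 in ES GFP- cells were above the control probes, and their summed intensity was 878, 2356 and 8738. The brightest was Olig2 in MGE GFP+ and ES GFP- cells, with intensities of 623 and 4117 within these sums. The paper uses Olig2 as a marker of oligodendrocytes, so the sums are not of motor neuron genes alone. The motor neuron factors Lhx3 and Lhx4 had intensities of 759 and 874 in ES GFP- cells and were within the range of the control probes in both Lhx6-GFP+ populations. Relative to ES GFP+ cells, 6 of 7 markers were at least 2-fold lower in MGE GFP+ cells (median log2 difference -2.67), but in the deposited values 2 of 7 were, with a median of -0.71. Lhx3, Lhx4 and 2 other markers were within the range of the control probes in both populations. Of the markers, 4 of 7 were lower in ES GFP+ than in ES GFP- cells, with a median of -1.26, and 1 was higher. Between MGE GFP+ and ES GFP- cells all 7 were lower, and 5 of 7 in the deposited values. The markers thus did not share a direction between the ES cell populations. There Slc18a3 had a log2 difference of -1.19, Isl1 of -0.28 and Chat of -0.31, and the probes of Slc5a7 did not share a direction. The part of motor neurons in these values was not tested.

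Gbx2, En1, En2 and Pax2 are known from the midbrain-hindbrain boundary. Of 6 markers of that region 2 in MGE GFP+, 1 in ES GFP+ and 4 in ES GFP- cells were above the control probes, with summed intensities of 1306, 2301 and 3056 and Wnt1 brightest on each array. None was at least 2-fold higher in MGE GFP+ cells than in either ES cell population, while 4 of 6 were at least 2-fold lower than in ES GFP- cells. Of 5 with a value 2 were at least 2-fold lower than in ES GFP+ cells. The medians were -0.60 against ES GFP+ and -1.18 against ES GFP- cells. In the deposited values they were -0.01 and -0.68, with 0 of 5 and 1 of 6 markers lower. No marker differed 2-fold between the ES cell populations (median -0.56), and 1 of 6 was lower in the deposited values. With scaling to the 50th percentile 3 of 6 were lower in ES GFP+ cells, with a median of -0.98, where 13.3% of all genes were. En1 was not well above background in MGE GFP+ cells, and En2 had an intensity of 115 there, within the range of the control probes.

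The 4 preoptic markers summed to an intensity of 91.1 in MGE GFP+, 973 in ES GFP+ and 3769 in ES GFP- cells, and 0, 1 and 3 of them were above the control probes. Hmx2, the brightest in both Lhx6-GFP+ populations, was 11.4-fold lower in MGE GFP+ than in ES GFP+ cells, and Nkx6-2, the brightest in ES GFP- cells, was 9.08-fold lower in ES GFP+ than in ES GFP- cells. The median log2 difference was -2.57 between MGE GFP+ and ES GFP+ cells, where 3 of 4 and 32.1% of all genes were at least 2-fold lower, and -2.39 between the ES cell populations, where again 3 of 4 were. In the deposited values the first of these differences was 0.69 for Dbx1, -0.03 for Hmx3, -1.22 for Nkx6-2 and -2.28 for Hmx2, and Hmx2 was the one marker above the control probes in ES GFP+ cells. All 4 were lower in MGE GFP+ than in ES GFP- cells, with a median of -3.97, and 3 of 4 in the deposited values, with a median of -2.45.

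Isl1 is also known from the striatal lineage. Of 13 striatal markers 9, 8 and 10 were above the control probes in MGE GFP+, ES GFP+ and ES GFP- cells, with summed intensities of 14137, 16489 and 37130. Bcl11b was the brightest in MGE GFP+ cells and Penk in the ES cell populations. The markers did not share a direction. The peptide gene Penk was 20.4-fold lower in MGE GFP+ than in ES GFP+ cells, whereas Tac1 was 5.07-fold higher and the zinc finger gene Bcl11b 3.28-fold higher. In total 2 of 12 genes with a value were at least 2-fold higher and 3 lower, with a median log2 difference of -0.47 that was 0.27 with the 50th percentile, and between the ES cell populations 3 of 13 were higher and 4 lower. Between the ES cell populations 2 were higher and 8 lower with the 50th percentile, where 15.2% and 13.3% of all genes were. In the deposited values 2 were higher and 5 lower. Against ES GFP- cells 2 of 13 were higher and 7 lower in MGE GFP+ cells, with a median of -1.23.

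Isl1 is known as well from sensory neurons and from heart precursors. Of 7 sensory and neural crest markers 0, 3 and 5 were above the control probes in MGE GFP+, ES GFP+ and ES GFP- cells, with summed intensities of 322, 2176 and 4615. Prph was brightest in MGE GFP+ cells. Relative to ES GFP+ cells, 6 of 7 were at least 2-fold lower in MGE GFP+ cells (median log2 difference -2.04), but 2 of 7 in the deposited values, with a median of -0.88. The median between the ES cell populations was 0.01, with 1 higher and 3 lower in ES GFP+ cells, and it was -0.36 in the deposited values. Of 7 cardiac and mesodermal markers none was above the control probes in MGE GFP+ or ES GFP+ cells and Gata4 alone was in ES GFP- cells, with summed intensities of 172, 832 and 551. The brightest were Myh6 in both Lhx6-GFP+ populations and Gata4 in ES GFP- cells. The cardiac sums had the order of the control probe medians, highest in ES GFP+ cells, and 3 of 7 cardiac genes were at least 2-fold higher in ES GFP+ than in ES GFP- cells, with a median of 0.80, but 0 of 6 in the deposited values, with a median of 0.02. The part of this baseline and the part of other cells in the dim values of Isl1, Chat, Slc18a3 and Slc5a7 was not tested.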

How the data were processed

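The authors hybridised Cy3-labeled RNA to 3 one-colour Agilent arrays (8×60K format by the number of spots, annotation of mm9) and extracted them with Feature Extraction, version 10.7.3.1 per the file headers. The labels name a 4×44K array and another amplification kit than the paper. All arrays shared 1 slide and 1 scan, so no block was needed. The deposited scanner files hold intensity per spot after background subtraction. The deposited log2 table was within 0.166 of log2 median intensity, quantile normalized without background subtraction. Its direction is that of intensity, and column medians were 7.69, 7.69 and 7.68 for MGE GFP+, ES GFP+ and ES GFP- cells.

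From the scanner files, log2 intensity minus the array's 75th percentile over mouse probes was used. Outlier spots (98, 135 and 137) were left out, 0 spots were saturated, and repeat spots were averaged. The software's call on at least 0.5 of its spots made a probe well above background. Others were raised to the lowest scaled value with the call, giving "at least" folds, and pairs of arrays without it gave no fold. A gene's difference is the mean over its probes. RefSeq accessions named 26582 probes. Probe positions are those of the study's tables. The genes named from each list are the 4 with the largest range among genes above the control probes. For Etv1, Gbx2, Kctd12 and Zic1 the 3 most similar genes were named by a fixed rule. Some genes that these rules name are not reported here.

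The members and lists were chosen with earlier results of these data known. Alternatives were another percentile, quantile normalization, median intensities, the deposited log2 values, other floors, the brightest probe, outlier spots kept, normexp and subtraction of the control median. Steps were run with Python 3, numpy, pandas and limma and tested on simulated data.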

Additional observations from a re-analysis of the deposited data

How the results depend on the processing

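The following alternatives moved a count of the 9 genes, or their median by over 1 SD of a difference between repeat spots. Between MGE GFP+ and ES GFP+ cells, the number at least 2-fold higher was 4 and became 7 with the 50th percentile (25.9% of all genes), 8 with quantile normalization (13.4%) and 8 with the control median subtracted (18.7%). The number lower was 0 and became 1 (Slc5a7) with the brightest probe. The median log2 difference of 0.66 became 1.40 (50th percentile), 1.35 (quantile), 0.92 (median intensity and deposited values), 2.19 (floor at the control probes, 5 genes with a value) and 1.82 (control median subtracted). Between MGE GFP+ and ES GFP- cells, the number lower was 0 and became 1 (Slc18a3) with the control median subtracted, and the median of 2.73 became 3.05 (50th percentile), 2.35 (median intensity and deposited values), 1.78 (brightest probe) and 2.30 (normexp). Between ES GFP+ and ES GFP- cells, the number higher was 3 and became 2 with the 50th percentile, 4 with the brightest probe and 1 (Gbx1) at a 4-fold threshold. Gbx1 was under 4-fold with the floor at the control probes (log2 difference 1.81) and in the deposited values (1.65). The number lower was 2 and became 1 with the floor at the control probes and with normexp, 5 with the control median subtracted and 0 at a 4-fold threshold. The median of 0.46 became 0.032 (50th percentile), -0.81 (quantile), -0.21 (median intensity and deposited values), 1.31 (floor at the control probes, 5 genes), 0.66 (brightest probe) and -1.04 (control median subtracted). In this last comparison the sign of the median thus depended on the scaling. The causes were not tested, apart from the 5 genes left by the higher floor and the single probe used under the brightest probe.

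No member at least 2-fold different changed sign under any alternative. Of 260 member values under alternatives, 142 moved by less than 1 SD of a difference between repeat spots and 118 by more. Normexp, run on median spot intensities, and subtraction of the control median were chosen after seeing the data. Normexp on mean spot intensities was not run, because the files used here hold no such column. No paired analysis was possible because each group has 1 array. Dim genes are limited by the control-probe signal of the ES GFP+ array.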

Other observations

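Genes of FGF signaling, which acts upstream of Etv1, Etv4 and Etv5 in other tissues, were read as a list of 12. Between MGE GFP+ and ES GFP+ cells 0 of 12 were at least 2-fold higher and 3 lower, where 5.52% and 32.1% of all genes were, with a median log2 difference of 0.03. Between the ES cell populations 2 were higher and 2 lower in ES GFP+ cells, where 24% and 6.41% of all genes were, with a median of -0.34. Against ES GFP- cells 0 of 11 with a value were higher and 1 lower in MGE GFP+ cells, where 10% and 17.2% of all genes were, with a median of -0.20. With scaling to the 50th percentile the first comparison had 5 higher and 1 lower, with a median of 0.77. There 25.9% of all genes were higher and 17.1% lower. In the deposited values it had 0 of 11 higher and 1 lower, with a median of 0.12. The receptor Fgfr3 was 4.34-fold lower in MGE GFP+ than in ES GFP- cells and 3.20-fold lower in ES GFP+ than in ES GFP- cells, and Fgfr1 was 2.00-fold lower in the latter, with a log2 difference of -0.89 in the deposited values and of 0.21 on its brightest probe, against -1.42 and -1.81 on the others. Spry2, a feedback inhibitor, had intensities of 143 in MGE GFP+, 625 in ES GFP+ and 241 in ES GFP- cells and was 2.92-fold higher in ES GFP+ than in ES GFP- cells, where Etv1 was lower. The ligand Fgf8 was 2.05-fold higher in ES GFP+ than in ES GFP- cells over 3 probes, but the one probe above the control probes had a log2 difference of 0.23, and that of the deposited values was 0.26.

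The genes with the most similar pattern over the 3 arrays were looked up among 12161 genes above the control probes on at least 1 array, by the distance between log2 profiles centred on their mean. With 3 points a profile is a weak measure of likeness, and nothing is read from it on shared function. For Gbx2 the 3 closest included Plxna2 (distance 0.13) and Zg16 (0.13). For Kctd12 they were Tshr (0.13), Pde1a (0.14) and Slitrk4 (0.19), and for Zic1 Tshr (0.16), G530011O06Rik (0.21) and Slitrk4 (0.25). For Etv1 no gene was as close. The nearest were Angpt1 (0.75), Mpi (0.85) and Tbr1 (0.92), each higher in MGE GFP+ than in ES GFP+ cells by a log2 difference of 3.00 to 3.68 and lower in ES GFP+ than in ES GFP- cells by 0.19 to 0.77. In the deposited values the log2 difference between the ES cell populations was 1.23 for Kctd12 and 1.22 for Zic1. It was 1.26 for Pde1a, 0.53 for Slitrk4, -0.06 for Tshr and -0.05 for G530011O06Rik, so the likeness depended on the processing.

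The 2 Etv1 probes lie 1508 bases apart in mm9 on the same transcript accession, and their gap of 1.95 in the comparison of the ES cell populations was 1.78 in the deposited values.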
